A study of Mus musculus with 8 samples.

Results

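The enzymes that make nucleotides and supply their single-carbon units were followed by the signal of 39 genes in whole mouse liver. These genes were chosen by gene symbol from a fixed list of names, drawn up with earlier results of these data known. The deposited gene table held 34465 genes, of which 16443 passed a filter on low values (mean signal, taken over all 8 libraries, of 1 or more), and all 39 members passed it. RNA was sequenced in 8 libraries, 2 for each of 4 groups, from mice of the strain 129S4/SvJae/FVB at an age of 3 months. Every mouse carried b-PDGFR fl/fl, that is, floxed alleles of Pdgfrb, which encodes a receptor for platelet-derived growth factor, so the controls were floxed as well. Mice labelled GFAP Cre -/- are called Cre-negative here and those labelled GFAP Cre +/- are called Cre-positive. The GFAP promoter drove Cre, which the labels give as a deletion in hepatic stellate cells. Livers came from a sham operation or were taken 72 h after partial hepatectomy, and these operations in the 2 genotypes made the 4 groups. Groups are described as duplicates, and whether every library came from a separate animal is not stated, so p-values measure the spread between these libraries, which may be technical.

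Cells build deoxyribonucleotides mainly from ribonucleotides, which are reduced by ribonucleotide reductase, and thymidylate is made from deoxyuridylate with a folate-borne carbon. Purine rings are assembled step by step on phosphoribosyl pyrophosphate, pyrimidine rings are built first and then joined to it, and the folate cycle supplies carbon to purines and to thymidylate. Liver is a main site of purine synthesis and folate metabolism at rest, and hepatocytes re-enter the cell cycle and replicate DNA after partial hepatectomy.

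Pdgfrb, the floxed gene, had signal of 49.8, 63.3, 59.4 and 46.0 in sham livers and 123, 70.5, 63.1 and 99.9 after hepatectomy, where each set of 4 lists the 2 Cre-negative libraries first and the 2 Cre-positive ones after them. The genotypes overlapped, and the whole-gene value in whole liver does not check the deletion. The second Cre-positive hepatectomy library stood apart: its 10 highest genes held 30.0% of the signal, beside 14.3% to 18.4% elsewhere. Of 9 members under 45% GC (Rrm1, Rrm2b, Dck, Ctps2, Cmpk1, Ppat, Gmps, Adss and Prps2), it was the lowest of the 8 libraries in 6, and of the 30 others in 1. The first Cre-negative hepatectomy library was the lowest in 0 of the 9 and in 9 of the 30 others. Relative to the mean of the sham libraries, genes under 40% GC had a median log2 difference of -1.76 in the second Cre-positive hepatectomy library and of -0.07 to 0.08 in the others. Genes of 55% GC or more had one of 0.67 there, and of 0.62 and 0.39 in the 2 Cre-negative hepatectomy libraries, beside -0.11 in the first Cre-positive one. Without the second Cre-positive hepatectomy library 9 members, rather than 6, passed in the comparison that follows, and the part of base composition in its values was not tested beyond a correction for GC content chosen after seeing the data.

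Averaged over both genotypes, 6 of the 39 genes (15.4%) rose after hepatectomy and 0 fell, where 3.64% of all genes tested rose and 0.845% fell. By limma with an unadjusted p under 0.05, 13 of the 39 members were higher and 3 lower, beside 2642 and 1275 of the 16443 genes tested. The genes that rose were Rrm1, Rrm2, Tyms, Dut, Ctps2 and Nme1, by 0.95 to 2.89 on the log2 scale. Of these, 4 belong to deoxyribonucleotide synthesis. The median log2 fold change of the members was 0.20, beside 0.12 over all genes tested. Purine synthesis, with 11 members, and the folate cycle, with 5, had 0 members past the threshold in either direction, and their median changes were -0.17 in both groups. The purine count depended on the setting, including which libraries were kept. With the GC correction Adssl1 fell, by -1.13 (limma adjusted p = 0.00723). Its log2 fold change was -1.05 without the second Cre-positive hepatectomy library. Without the first Cre-positive hepatectomy library the log2 fold changes were -1.025 for Paics, -0.93 for Ppat, -0.79 for Adss, -0.52 for Adssl1 and 0.46 for Impdh2. In that setting 4 of the 11 purine changes were positive. Over the alternative settings the purine median ranged from -0.33 with median-of-ratios scaling to -0.09 without the first Cre-positive hepatectomy library. The folate median ranged from -0.53 with the GC correction to 0.03 without that library, where its sign turned. Signal is the authors' normalized value, fold changes are on the log2(signal + 1) scale, which understates changes of low genes, and adjusted p-values come from limma with Benjamini-Hochberg adjustment over the 16443 genes and a threshold of 0.05. In bulk liver RNA, fewer cells of a type and less RNA per cell cannot be told apart.

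Marker sums of some cell types, though not of all, also differed between the operations. Erythroid markers (11 of 12 in the table, with Epb4.2 and Rhag among those at 0 in some libraries) summed to between 4887 and 9107 in sham livers and to between 11113 and 54995 after hepatectomy, without overlap. Kupffer cell and macrophage markers (9 of 10) summed to 1678 to 2702 in sham livers, to 2602 and 1916 in Cre-negative and to 4368 and 4631 in Cre-positive hepatectomy livers. Stellate cell markers (10 of 10, the cells in which Pdgfrb is best known) summed to 2219.5 to 3098 in sham livers and to 1341 to 2139.7 after hepatectomy, and sinusoidal endothelial markers (10 of 10) to 4104 to 5296 and then to 1783 to 4029, both without overlap. Pdgfrb is itself in the stellate list and, by its values given above, did not fall with that sum. A sum is led by its most abundant genes, and the direction of each marker is not given here. Hepatocyte markers (10 of 10) were lower after hepatectomy, at 296690 to 432390 against 458160 to 523960, with Alb listed at 0 in 7 libraries and Serpina1c at 0 in some. Cholangiocyte, lymphocyte and neutrophil sums overlapped between operations. The part of these cells in the members' changes was not tested.

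**Figure D1:**
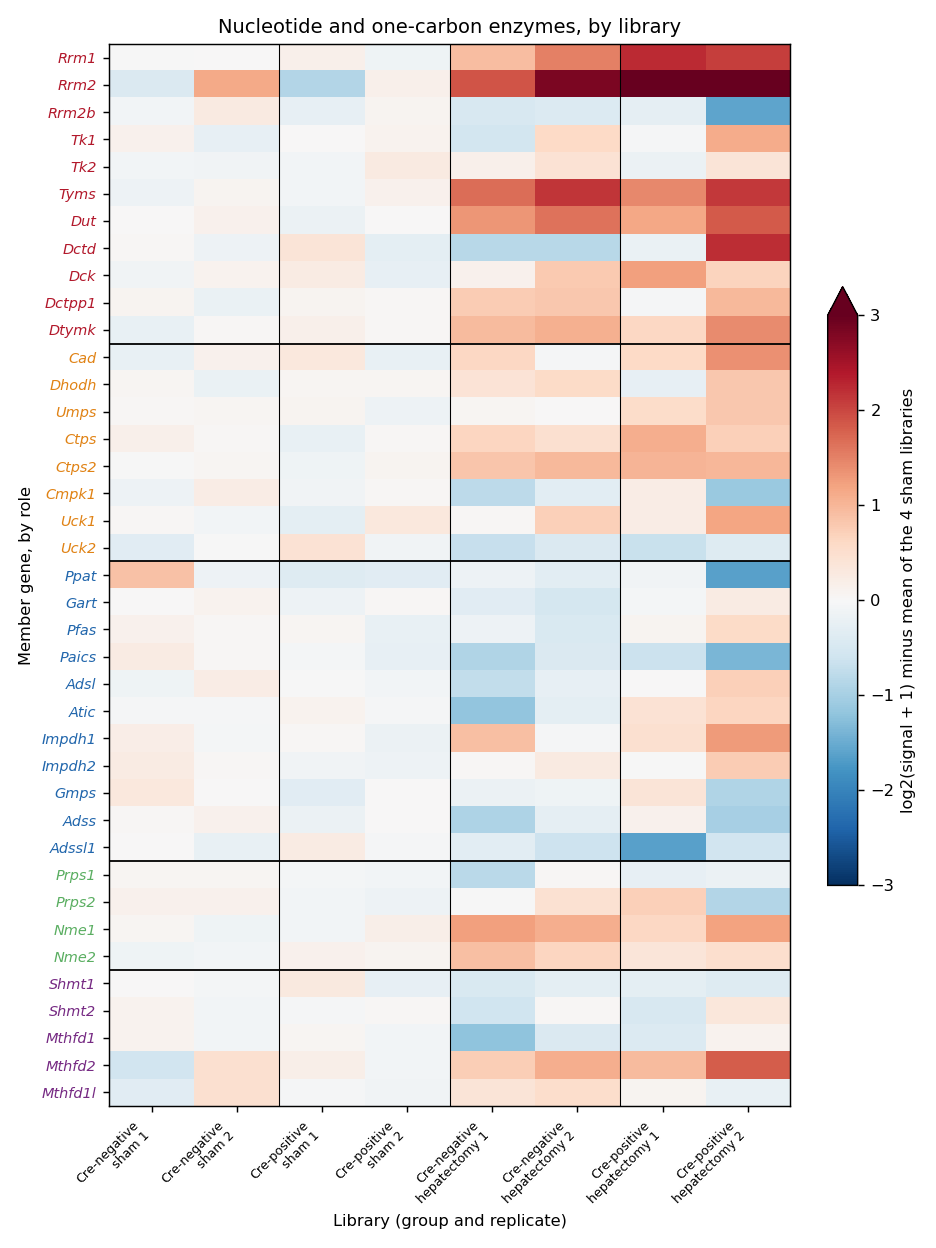
Signal of the 39 genes in each of the 8 libraries (columns) as log2(signal + 1) minus the mean of the 4 sham libraries, with rows in role order and gene names coloured by role, separated by horizontal lines. Red is above and blue below the sham mean, values above 3 share the darkest red, and the deoxyribonucleotide genes at the top hold the reddest cells, with Rrm2 at 1.90 to 3.73 in the hepatectomy libraries.

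The sequences upstream of the genes with the 3 largest rises, Rrm2, Tyms and Rrm1, are shown because these genes carry the main result, each with a log2 fold change above 1.5. Each run is the 250 bases before the annotated start, 5′ to 3′ on the gene's strand, from RefSeq on GRCm38.p6, which differs from the mm9 and NCBIM37 builds named in the submitters' processing notes. The positions are chr12:24708004-24708253 on the plus strand for Rrm2, chr5:30073626-30073875 on the minus strand for Tyms and chr7:102441445-102441694 on the plus strand for Rrm1. Capitals mark every match, on either strand, to the CCAAT box CCAAT, the E-box CACGTG, the GC box GGGCGG or 1 of 4 forms of the E2F motif.
Rrm2: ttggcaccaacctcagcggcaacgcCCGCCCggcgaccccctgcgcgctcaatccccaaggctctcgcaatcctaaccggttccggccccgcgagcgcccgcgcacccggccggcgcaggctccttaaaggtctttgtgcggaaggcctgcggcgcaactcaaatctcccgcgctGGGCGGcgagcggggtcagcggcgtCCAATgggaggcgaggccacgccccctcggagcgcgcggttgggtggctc
Tyms: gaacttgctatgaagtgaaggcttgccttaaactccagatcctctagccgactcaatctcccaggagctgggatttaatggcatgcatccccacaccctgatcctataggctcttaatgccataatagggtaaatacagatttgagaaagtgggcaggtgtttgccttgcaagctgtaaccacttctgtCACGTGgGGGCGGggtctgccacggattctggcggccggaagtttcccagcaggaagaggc
Rrm1: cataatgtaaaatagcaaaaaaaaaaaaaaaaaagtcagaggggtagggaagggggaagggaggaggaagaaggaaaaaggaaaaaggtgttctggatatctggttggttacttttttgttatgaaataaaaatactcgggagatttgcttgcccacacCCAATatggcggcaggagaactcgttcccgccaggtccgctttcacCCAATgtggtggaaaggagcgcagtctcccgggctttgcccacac
The E2F forms searched were TTTCGCGC, TTTGGCGC, TTTCCCGC and TTTGCCGC. The Rrm1 run held 2 CCAAT boxes, at -91 and -45 from the start, and the Rrm2 run held 1 at -50 and 2 GC boxes. The Tyms run held 1 E-box and 1 GC box and no CCAAT box. No match in these 3 runs overlapped another, and no motif was shared by all 3.

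Promoter windows of 300 bases, 250 before and 50 after the start, were found for 36 of the 39 genes, giving 45 windows, and were not found for Rrm2b, Pfas and Dhodh. Of these windows, 30 (66.7%) held a GC box, beside 35.7% of all 32851 windows in the table. A CCAAT box lay in 16 (35.6%), beside 37.4% of all windows, and an E-box lay in 7 (15.6%), beside 7.15%. Only 2 windows (4.44%) held any of the 4 E2F forms, beside 2.26% of all, and these belonged to Ppat and Prps2, neither of which passed the threshold in any contrast. The genes whose windows held an E-box were Atic, Dtymk, Impdh2, Nme1, Paics and Tyms. These are counts of letters, and a window without a match says only that those letters are absent from it.

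Ribonucleotide reductase, which turns ribonucleotides into deoxyribonucleotides, is formed by a large subunit (Rrm1) and a small subunit (Rrm2, made in dividing cells, or Rrm2b, known as the p53-inducible form). Values keep the order given for Pdgfrb. Rrm1 signal was 81.1, 81.9, 90.5 and 74.0 in sham livers and 157, 236, 388 and 347 after hepatectomy, a log2 fold change of 1.69 (SE 0.20, adjusted p = 0.00683). Rrm2 signal was 19.4, 59.6, 13.8 and 29.6 in sham livers and 101, 194, 233 and 363 after hepatectomy, a log2 fold change of 2.89 (SE 0.44, adjusted p = 0.0178). For both genes all 4 hepatectomy libraries lay above all 4 sham libraries, and the Cre-positive pair was the higher pair. Rrm2b signal was 28.3, 36.3, 25.3 and 31.9 in sham livers and 21.4, 22.6, 24.7 and 9.35 after hepatectomy, with all 4 hepatectomy libraries below all 4 sham libraries. Its log2 fold change, -0.69 (SE 0.33, adjusted p = 0.251), did not pass the threshold, and the last Cre-positive library was the lowest of the 8.

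Thymidylate is made by thymidylate synthase (Tyms) from the deoxyuridylate that dUTPase (Dut) yields, or is salvaged from thymidine by thymidine kinases. Tyms signal was 38.4, 45.4, 40.2 and 46.5 in sham livers and 138, 191, 118 and 189 after hepatectomy, a log2 fold change of 1.85 (SE 0.23, adjusted p = 0.00877). Dut signal was 67.7, 73.6, 59.3 and 67.9 and then 169, 209, 151 and 241, a log2 fold change of 1.49 (SE 0.21, adjusted p = 0.0142). Both genes had hepatectomy libraries that did not overlap the sham libraries. Thymidylate kinase (Dtymk), the next step after Tyms, showed the same separation, at 117, 141, 152 and 142 in sham livers and 268, 288, 211 and 371 after hepatectomy. Its log2 fold change of 1.01 (SE 0.22, adjusted p = 0.0502) lay just outside the threshold.

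The thymidine kinases did not separate the operations. Tk1, the cytosolic kinase known for its peak in S phase, had signal of 244, 188, 223 and 237 in sham livers and 153, 335, 216 and 479.7 after hepatectomy, a log2 fold change of 0.28 (SE 0.34, adjusted p = 0.624). The 95% interval of that change was -0.52 to 1.08, and of the 4 hepatectomy libraries 1 lay below, 1 among and 2 above the sham values. Exons of Tk1 overlap those of Afmid, on the opposite strand, by 83 bases, and the part of this in the Tk1 signal was not tested. Tk2, the mitochondrial kinase, had signal of 99.3, 97.7, 98.2 and 126 and then 116, 141, 92.4 and 138, a log2 fold change of 0.20 (SE 0.21, adjusted p = 0.571). The fitted directions of Tk1 and Tk2 were positive with the deposited values, median-of-ratios scaling and quantile normalization, and turned negative (-0.02 and -0.04) with the GC correction.

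The 3 other members of deoxyribonucleotide synthesis gave no call. Deoxycytidine kinase (Dck) had a log2 fold change of 0.70 (SE 0.27, adjusted p = 0.182) and Dctpp1, a dCTP pyrophosphatase, of 0.63 (SE 0.24, adjusted p = 0.18), with overlapping operations in both genes. Deoxycytidylate deaminase (Dctd) was near 0, at 0.823, 0.599, 1.33 and 0.449 in sham livers and 0, 0, 0.532 and 7.19 after hepatectomy, and both Cre-negative hepatectomy libraries listed it at 0, so no fold change is given. Over the 11 genes of this role the median log2 fold change was 0.70, and 10 of the 11 fitted changes were positive. Dctd is counted among the 10, but its sign turned with a pseudocount of 0.1, where 9 of the 11 were positive. The median stayed positive under both other scalings and under the GC correction, where 7 of the 11 were positive.

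**Figure D2:**
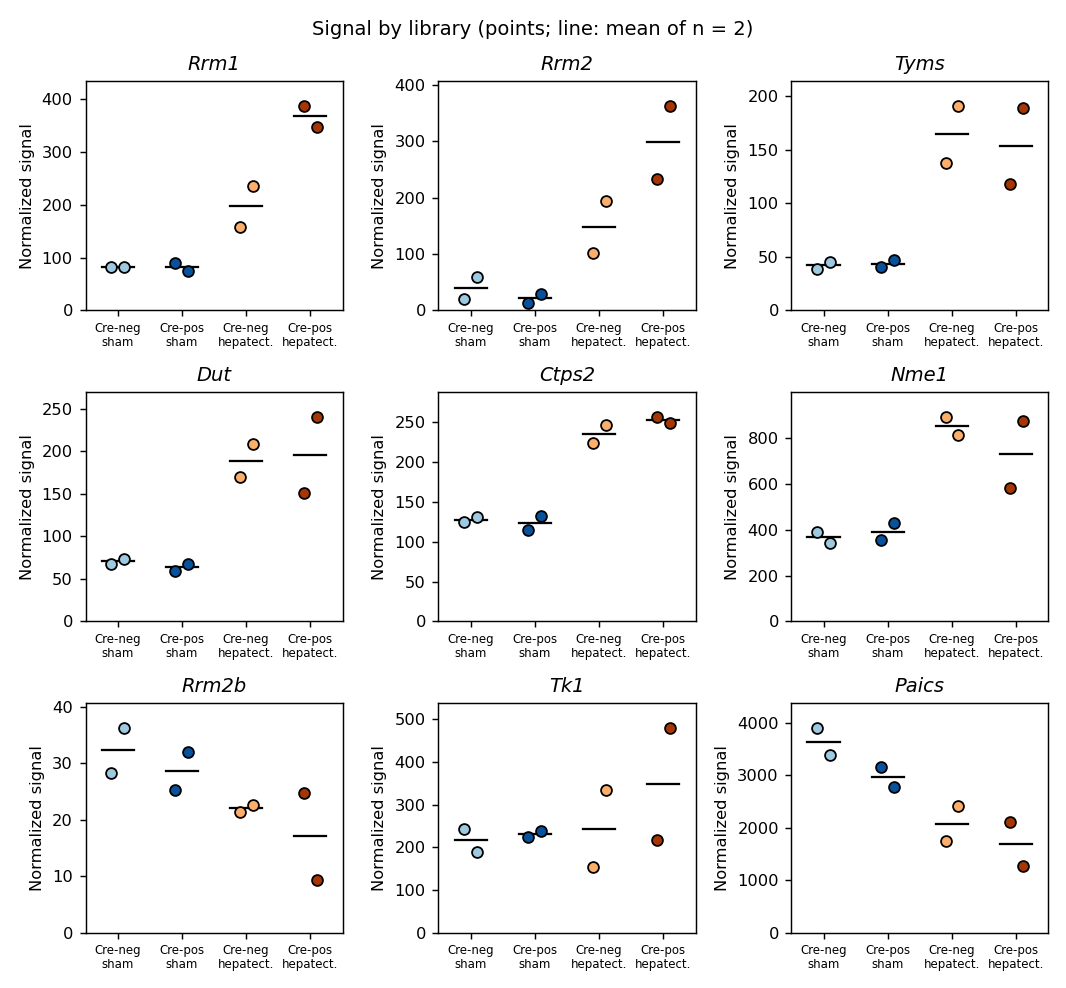
Normalized signal (linear axis from 0) of 9 members in the 8 libraries, 1 point per library, with a line at the mean of the 2 libraries of each group. The first 6 panels are the genes that rose, whose hepatectomy points all lie above their sham points; Tk1 overlaps, and Rrm2b and Paics lie lower after hepatectomy.

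Pyrimidine synthesis begins with Cad, the enzyme that carries the first 3 steps, and continues through Dhodh and Umps to uridylate, which CTP synthases (Ctps, Ctps2) convert further to cytidine nucleotides. Ctps2 signal was 125, 130.4, 115 and 132 in sham livers and 224, 246, 257 and 249 after hepatectomy, a log2 fold change of 0.95 (SE 0.16, adjusted p = 0.0233). Its 4 hepatectomy libraries lay close together and clear of the sham libraries. Ctps signal was 74.6, 67.9, 57.1 and 67.8 and then 104, 93.2, 142 and 109, also without overlap, and its log2 fold change of 0.73 (SE 0.19, adjusted p = 0.0847) did not pass the threshold. The steps before them did not pass either, with log2 fold changes of 0.63 (SE 0.27, adjusted p = 0.209) for Cad, 0.39 (SE 0.27, adjusted p = 0.39) for Dhodh and 0.36 (SE 0.18, adjusted p = 0.263) for Umps.

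The uridine and cytidine kinases, which salvage nucleosides, gave opposite fitted directions. Uck1 signal was 131, 121, 104 and 158 in sham livers and 129.8, 210.0, 149 and 288 after hepatectomy, a log2 fold change of 0.54 (SE 0.29, adjusted p = 0.294). Uck2 signal was 58.5, 73.7, 101 and 69.2 and then 45.2, 54.6, 46.6 and 56.8, a log2 fold change of -0.54 (SE 0.22, adjusted p = 0.198). All 4 hepatectomy values of Uck2 lay below all sham values, while those of Uck1 overlapped them. Cmpk1, which phosphorylates UMP and CMP, was not called, with a log2 fold change of -0.50 (SE 0.31, adjusted p = 0.348).

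Phosphoribosyl pyrophosphate synthetases (Prps1, Prps2) make the sugar donor of both rings, and nucleoside diphosphate kinases (Nme1, Nme2) add the last phosphate. Nme1 signal was 391, 343, 355 and 428 in sham livers and 892, 811, 583 and 876 after hepatectomy, a log2 fold change of 1.04 (SE 0.19, adjusted p = 0.0305). Nme2 signal was 2091, 2176, 2499 and 2412 and then 4276, 3592, 2957 and 3249, a log2 fold change of 0.61 (SE 0.15, adjusted p = 0.0715). The operations did not overlap for either gene, and the lowest hepatectomy library of both was the first Cre-positive one. Nme1 and Nme2 are similar neighbouring genes that also share exons with the readthrough gene Gm20390, so their split is uncertain. Prps1 signal was 247, 246, 228 and 225 in sham livers and 134, 243, 199 and 208 after hepatectomy, and Prps2 signal was 59.3, 59.8, 51.2 and 48.7 and then 54.3, 75.2, 90.1 and 29.4. Neither synthetase separated the operations (log2 fold changes of -0.30, adjusted p = 0.413, for Prps1 and 0.07, adjusted p = 0.909, for Prps2), and the sign for Prps2 turned negative with median-of-ratios scaling (-0.08) and quantile normalization (-0.07).

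Purine synthesis, which runs from Ppat, Gart, Pfas and Paics through Adsl and Atic to inosinate and then by separate branches to guanylate (Impdh1, Impdh2, Gmps) and adenylate (Adss, Adssl1), gave 3 positive and 8 negative fitted changes, and 2 positive ones under either other scaling. Paics, a bifunctional enzyme of the middle steps, had the most negative one. Its signal was 3899, 3378, 3145 and 2764 in sham livers and 1741, 2405, 2105 and 1263 after hepatectomy, a log2 fold change of -0.84 (SE 0.22, adjusted p = 0.0831). All 4 hepatectomy libraries lay below all 4 sham libraries, yet the change did not pass the threshold. Ppat, which catalyses the first committed step, had a log2 fold change of -0.55 (SE 0.37, adjusted p = 0.389), and its first Cre-negative sham library, at 372, was above the 155 to 181 of the other 3. Paics and Ppat lie head to head on opposite strands with exons sharing 272 bases, and reads in a shared stretch cannot be told apart unless the counting used strand, which the labels do not state. In all, 15 members have exons that overlap another gene in the reference annotation, among them Tk1 with Afmid (83 bases) and Shmt1 with Smcr8 (184 bases).

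At the branch to guanylate, Impdh1 had the most positive fitted change of the purine genes. Its signal was 46.8, 39.1, 41.8 and 35.7 in sham livers and 76.7, 39.6, 56.6 and 101 after hepatectomy, a log2 fold change of 0.66 (SE 0.30, adjusted p = 0.234). Impdh2 signal was 368, 319, 289 and 279.8 and then 322, 379, 310.1 and 528, a log2 fold change of 0.27 (SE 0.21, adjusted p = 0.448). Both isozymes overlapped between operations. At the branch to adenylate, Adss signal was 402, 428, 348 and 392 in sham livers and 206, 324, 426 and 197 after hepatectomy, a log2 fold change of -0.52 (SE 0.28, adjusted p = 0.299). Adssl1, known as the muscle form, had signal of 289, 243, 335 and 279 and then 228, 185, 91.3 and 192, a log2 fold change of -0.78 (SE 0.26, adjusted p = 0.141). All 4 hepatectomy values of Adssl1 were below its sham values, with the first Cre-positive library the lowest, while Adss overlapped. The remaining log2 fold changes were -0.17 for Gart, 0.01 for Pfas, -0.07 for Adsl, -0.10 for Atic and -0.20 for Gmps, with adjusted p-values of 0.535 to 0.981. The sign for Pfas turned negative under both other scalings (-0.15 and -0.09), and that for Gmps turned positive (0.24) with the GC correction.

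The folate cycle members move carbon from serine onto folate (Shmt1 in the cytosol, Shmt2 in mitochondria) and interconvert folate forms (Mthfd1 in the cytosol, Mthfd2 and Mthfd1l in mitochondria). Mthfd2, low in adult liver and known for its high level in growing cells, signalled 9.55, 21.0, 16.7 and 13.8 in sham livers and 25.3, 32.4, 29.2 and 54.0 after hepatectomy, without overlap. Its log2 fold change was 1.15 (SE 0.34, adjusted p = 0.109). Mthfd1 signal was 3948, 3485, 3835 and 3446 and then 1578, 2711, 2785 and 3948, a log2 fold change of -0.49 (SE 0.23, adjusted p = 0.239). The first Cre-negative hepatectomy library of Mthfd1 was the lowest and the last Cre-positive one was level with sham. Shmt1 signal was 1552, 1462, 1864 and 1292 in sham livers and 1105, 1256, 1247 and 1175 after hepatectomy, all lower than in sham, with a log2 fold change of -0.36 (SE 0.17, adjusted p = 0.254). Shmt2 and Mthfd1l overlapped between operations. Shmt2 signal was 2043, 1777, 1838 and 1930.3 and then 1259.9, 1953, 1355 and 2388, a log2 fold change of -0.17 (SE 0.24, adjusted p = 0.667), and Mthfd1l signal was 60.3, 107, 74.8 and 70.9 and then 100.03, 111, 81.3 and 65.7, a log2 fold change of 0.19 (SE 0.24, adjusted p = 0.624).

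**Figure D3:**
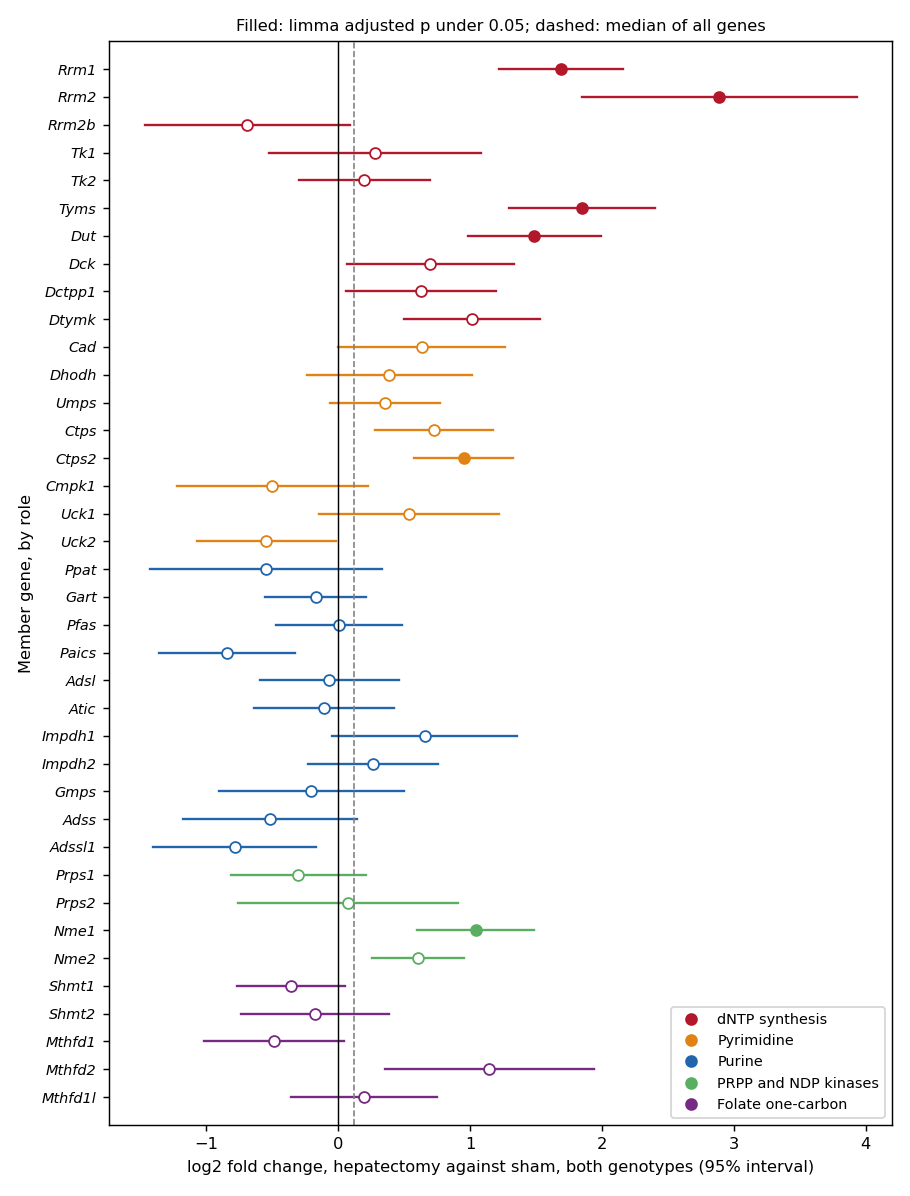
Log2 fold change of 38 of the 39 members, hepatectomy against sham averaged over both genotypes, with 95% intervals from limma, coloured by role; Dctd, listed at 0 in 2 libraries, is not drawn. Filled points passed the adjusted p threshold of 0.05 (6 genes, all to the right), and the dashed line is the median of all genes tested, 0.12.

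By separation alone, 10 of the 39 members (25.6%) had all 4 hepatectomy libraries above all 4 sham libraries, beside 11.2% of all genes tested. These were the 6 genes that rose and Dtymk, Ctps, Nme2 and Mthfd2. Another 5 members (12.8%) had all 4 below, beside 6.2% of all genes, namely Rrm2b, Uck2, Paics, Adssl1 and Shmt1. Per library, the median of the 11 deoxyribonucleotide genes was 0.76, 0.81, 0.62 and 1.43 above the sham mean on the log2 scale in the 4 hepatectomy libraries. The 11 include Dctd, which was near 0 in signal and passed the filter only through the last of these libraries. Dctd lay at -0.83, -0.83, -0.21 and 2.21 on that scale, so it adds to the higher median of the last library. The purine median was -0.32, -0.30, 0.02 and 0.25 in the same library order, beside -0.07 to 0.12 in the sham libraries. The Cre-negative pair lay below the sham libraries, the first Cre-positive library among them and the second above them.

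The number of calls varied with the libraries kept, both for the members and for all genes, while the fold changes of the 6 genes moved less. Without the first Cre-negative sham library 0 members were called, without the first Cre-positive sham library 1 (Rrm1), and without the second Cre-negative hepatectomy library 2 (Rrm1 and Tyms). In these 3 settings 149, 140 and 431 of all genes were called, beside 738 with all libraries. Without the first Cre-negative sham library the log2 fold changes were 1.69 for Rrm1, 2.50 for Rrm2, 1.79 for Tyms, 1.46 for Dut, 0.94 for Ctps2 and 1.09 for Nme1, with adjusted p-values by limma of 0.0537 to 0.144. Leaving out the second library of either sham group or the first Cre-negative hepatectomy library left 3, among 188 to 248 of all genes. Without the first Cre-positive hepatectomy library 20 were called, 14 higher and 6 lower, as were 5408 of all genes, and without the second 9, as were 1015 of all genes. Rrm1 kept its call in 15 of 16 alternative settings, Tyms in 14, Rrm2 and Dut in 11 each, Ctps2 in 9 and Nme1 in 8.

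Within Cre-negative livers, 0 of the 39 members passed the threshold by limma, where 1.01% of all genes rose and 0.103% fell. At an unadjusted p under 0.05 by limma, 9 of the 39 were higher and 2 were lower, beside 2494 and 1015 of the 16443 genes tested. The lowest adjusted p belonged to Tyms, with a log2 fold change of 1.93 (SE 0.33, adjusted p = 0.0501), followed by Dut at 1.40 (SE 0.30, adjusted p = 0.0787) and Nme1 at 1.21 (SE 0.27, adjusted p = 0.0816). Tyms passed with a filter at a mean of 10 and with a fit on the compared groups alone, and 8 members passed when either Cre-positive hepatectomy library was left out, where the calls over all genes went from 183 to 1698 without the first and to 1641 without the second. Mthfd1 and Paics were the 2 lower ones, at -0.84 (SE 0.32, adjusted p = 0.199) and -0.83 (SE 0.31, adjusted p = 0.196). The purine median was -0.50 with 9 of 11 negative, beside an all-gene median of 0.21.

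Within Cre-positive livers, 2 of the 39 members (5.13%) rose and 0 fell, where 0.845% of all genes rose and 0.0973% fell. Rrm1 changed by 2.15 (SE 0.28, adjusted p = 0.0279) and Rrm2 by 3.78 (SE 0.63, adjusted p = 0.0492). At an unadjusted p under 0.05 by limma, 12 of the 39 members were higher and 2, Adssl1 and Paics, were lower. Of the 16443 genes tested, 1364 were higher and 855 lower at that p. The call for Rrm2 held in 3 of 17 alternative settings and that for Rrm1 in 11. Leaving out either library of either sham group gave 0 calls, among 1 to 10 of all genes called rather than 155, and leaving out the first Cre-positive hepatectomy library gave 14, among 3507. Both genotypes have their own sham and hepatectomy libraries, and a call in one and not in the other does not show that they differ.

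**Figure D4:**
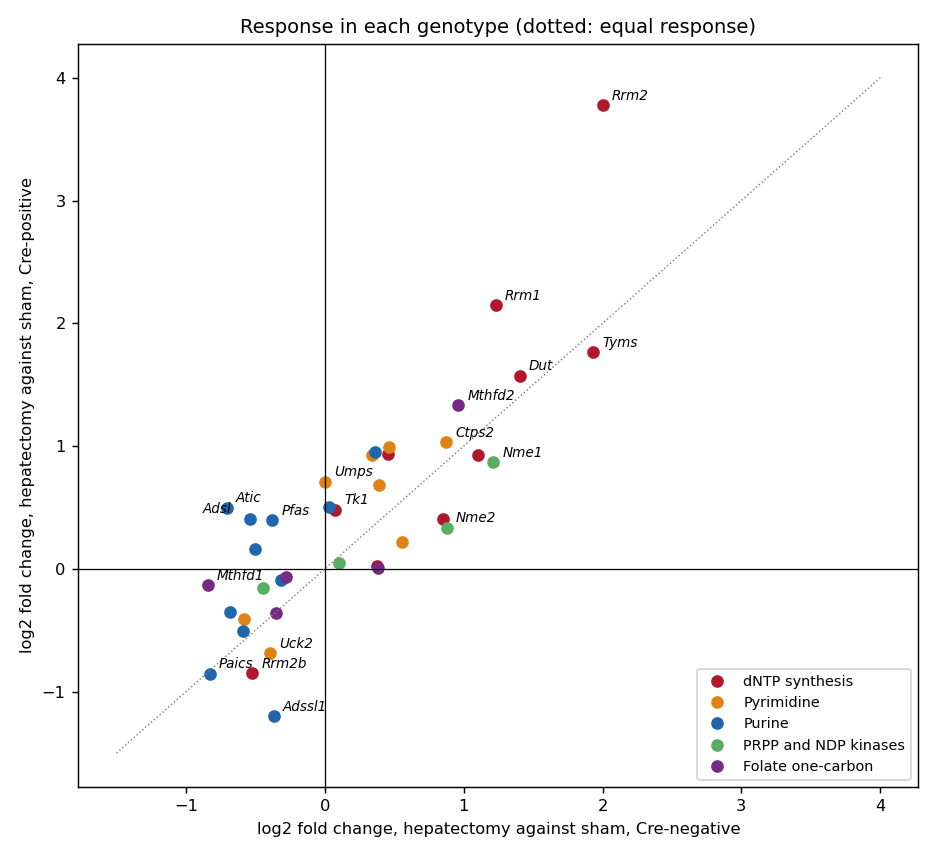
Log2 fold change, hepatectomy against sham, in Cre-negative livers (x axis) and Cre-positive livers (y axis), 1 point for each of 38 members coloured by role, without Dctd; the dotted line marks equal response. Rrm1 and Rrm2 lie above the line, at 1.23 and 2.15 for Rrm1 and at 2.00 and 3.78 for Rrm2, and Atic, Adsl and Pfas lie left of 0 on the x axis and above 0 on the y axis.

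How the response to hepatectomy differed with genotype passed the threshold for 0 of the 39 members, beside 0.0122% of all genes. By limma, 1 member, Atic, was under an unadjusted p of 0.05, beside 1330 of the 16443 genes tested. Rrm1 had a difference of 0.92 (SE 0.40, adjusted p = 0.621) and Rrm2 of 1.78 (SE 0.89, adjusted p = 0.655), with 95% intervals of -0.02 to 1.85 and -0.31 to 3.86. In 3 members (7.69%), beside 6.85% of all genes, the hepatectomy libraries lay on opposite sides of the sham libraries of their own genotype. These were the purine enzymes Atic, Adsl and Pfas, each with the Cre-negative pair below and the Cre-positive pair above. Atic signal was 239, 237, 262 and 237 in sham livers and 107, 198, 328 and 379 after hepatectomy, and its difference of response was 1.20 (SE 0.45, adjusted p = 0.591).

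Between genotypes directly, 0 members differed in sham livers, beside 0.00608% of all genes. By limma, 0 were under an unadjusted p of 0.05, beside 146 of the 16443 genes tested. In hepatectomy livers 0 members passed, beside 0.0182% of all genes. By limma, 5 of the 39 members had an unadjusted p under 0.05, all higher in Cre-positive livers (Atic, Rrm1, Adsl, Umps and Dctd). Of all 16443 genes tested, 3009 were under that p, 960 higher and 2049 lower, so such p-values were common there. Atic was the nearest to the threshold, at 1.27 (SE 0.32, adjusted p = 0.142), and Rrm1 was next, at 0.92 (SE 0.28, adjusted p = 0.185). Averaged over operations 0 members passed, beside 0.0122% of all genes. Only Atic was under an unadjusted p of 0.05 by limma, beside 1402 of the 16443 genes tested. Dctd passed the filter on low values only through the second Cre-positive hepatectomy library, and without that library it was not tested. Its place among the 5, and any call for it between genotypes, therefore rest on that library. The median of the members in hepatectomy livers was 0.17, beside -0.23 over all genes, a shift of all genes that became -0.08 with median-of-ratios scaling and 0.03 with quantile normalization.

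Ratios between paralogs within a library depend little on how the library was scaled, and 10 pairs were compared. With 4 libraries against 4, an exact two-sided permutation test has 70 regroupings and its smallest p is 0.0286. That p was reached by 3 pairs, and 0 of 10 passed after Benjamini-Hochberg adjustment (adjusted p = 0.0952 for each of the 3 by exact permutation). For Rrm2 over Rrm2b the log2 ratio was -0.52, 0.70, -0.83 and -0.11 in sham livers and 2.18, 3.05, 3.18 and 5.14 after hepatectomy, a difference of 3.58. The lowest ratio after hepatectomy was above the highest in sham livers, and the second Cre-positive library, in which Rrm2b was lowest, had the highest. Rrm2b has 41.2% GC and Rrm2 46.8%.

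For Uck2 over Uck1 the log2 ratio was -1.15, -0.70, -0.05 and -1.18 in sham livers and -1.502, -1.93, -1.66 and -2.32 after hepatectomy, a difference of -1.08. For Nme1 over Nme2 it was -2.42, -2.66, -2.81 and -2.49 and then -2.26, -2.15, -2.34 and -1.89, a difference of 0.44. In neither pair did the operations overlap. The other 7 pairs overlapped, with differences of 0.08 for Tk1 over Tk2, -0.23 for Ctps over Ctps2, -0.39 for Impdh2 over Impdh1 and 0.27 for Adss over Adssl1. The differences were -0.37 for Prps1 over Prps2, 0.18 for Shmt2 over Shmt1 and 0.68 for Mthfd1l over Mthfd1, and exact permutation p-values of the 7 ranged from 0.114 to 0.8.

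**Figure D5:**
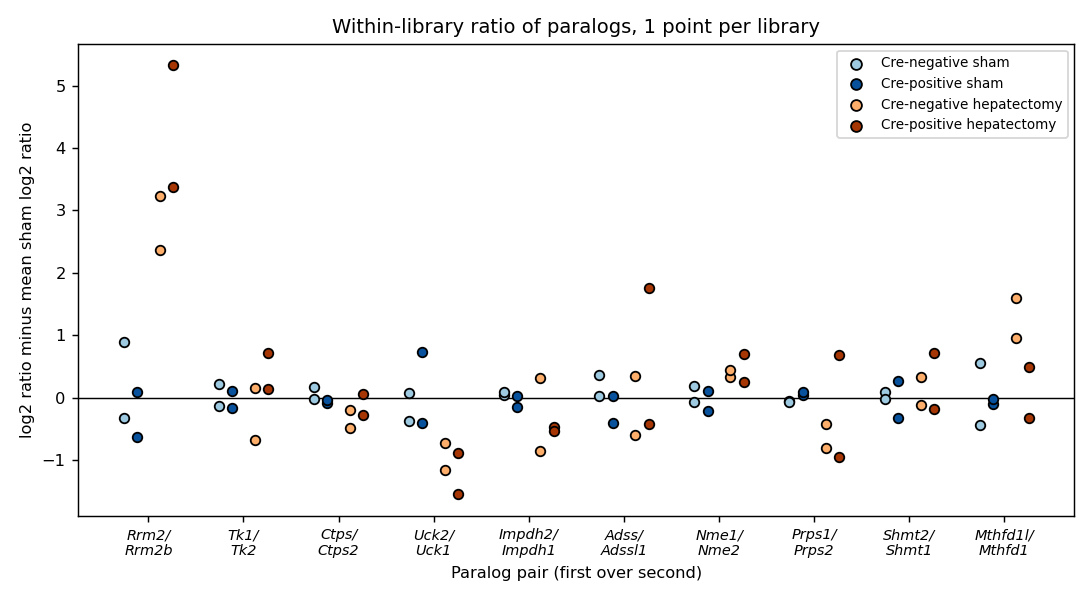
Log2 ratio of the first to the second paralog in each library minus the mean ratio of the 4 sham libraries, for 10 pairs, 1 point per library coloured by group. The Rrm2/Rrm2b points after hepatectomy all lie above the sham points, by 3.58 in the mean, Uck2/Uck1 points lie below it and most other pairs overlap.

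The isoform table listed 182 isoforms for the 39 genes, and 7 genes had 1 isoform. The isoform with the highest mean share was the same in sham and hepatectomy livers for 37 genes and differed for Ctps2 and Adsl. Adsl isoform Adsl-002 held 26.6, 24.4, 24.7 and 28.5 percent of the gene's signal in sham livers and 78.6, 45.5, 25.9 and 19.5 percent after hepatectomy, higher in the Cre-negative pair only. Mthfd1-201 held 69.9, 74.8, 86.0 and 76.5 percent in sham livers and 15.4, 32.8, 75.0 and 80.4 percent after hepatectomy, lower in the Cre-negative pair only. Umps-001 held 98.8, 99.1, 97.3 and 96.8 percent and then 48.5, 94.1, 99.0 and 99.9 percent, where the first Cre-negative hepatectomy library stood apart. These isoforms were singled out after their values were seen, and shares are estimates that depend on each other within a gene.

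By a rule also chosen after the values were seen, the leading isoform's share in both Cre-negative hepatectomy libraries was below that of the other 6 libraries in 6 of 31 members (19.4%), beside 16.8% of all genes. These were Ctps2, Mthfd1, Nme1, Paics, Tk1 and Umps. In the Cre-positive hepatectomy libraries it was below the others in 4 of 31 (12.9%), beside 8.18%, namely Cmpk1, Nme2, Ppat and Rrm2b. The shares of members were near those of all genes.

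Other genes of these pathways and genes of proliferation were counted in the averaged contrast, from lists chosen with results of these data known. Of 33 further genes of folate, the methionine cycle and serine synthesis, 2 rose (6.06%) and 1 fell (3.03%), beside 3.64% and 0.845% of all genes. Psat1, which carries a step of serine synthesis, had signal of 3.01, 5.95, 1.34 and 5.56 in sham livers and 20.8, 16.6, 19.8 and 23.0 after hepatectomy, and rose by 2.20 (SE 0.40, adjusted p = 0.0295). Psph, which carries the last step, had signal of 30.6, 46.9, 35.3 and 33.6 and then 89.3, 72.1, 85.7 and 113, and rose by 1.27 (SE 0.23, adjusted p = 0.0298). Dmgdh, a mitochondrial dehydrogenase of choline breakdown that passes carbon to folate, had signal of 6051, 4636, 5382 and 5728 and then 1916, 2698, 3331 and 2762, and fell, with a log2 fold change of -1.05 (SE 0.19, adjusted p = 0.0305). In none of the 3 did the operations overlap. Psat1 kept its call in 8 of 16 alternative settings, with log2 fold changes of 1.11 to 2.57, and Psph and Dmgdh kept theirs in 9 each. Of 39 genes of nucleotide salvage and breakdown tested, 1 rose (2.56%, below the share of all genes) and 0 fell. It was Nme6, another member of the nucleoside diphosphate kinase family, with signal of 62.2, 63.4, 81.4 and 76.3 in sham livers and 177, 173, 174 and 313 after hepatectomy, a log2 fold change of 1.51 (SE 0.22, adjusted p = 0.0161), and its call was kept in 10 of 16 settings. Of 15 reference genes of proliferation 12 rose (80.0%) and 0 fell, with a median of 2.78, among them 3 subunits of the replicative helicase. Mcm5 signal was 27.2, 31.2, 46.8 and 32.6 in sham livers and 220.0, 288, 649.9 and 584 after hepatectomy, a log2 fold change of 3.51 (SE 0.20, adjusted p = 0.00139). Mcm2 signal was 19.3, 20.4, 24.4 and 21.4 and then 106, 89.9, 283 and 196, a log2 fold change of 2.78 (SE 0.21, adjusted p = 0.00288), and Mcm6 signal was 11.4, 14.2, 27.3 and 13.1 and then 129, 305, 637 and 497, a log2 fold change of 4.34 (SE 0.35, adjusted p = 0.00288). In all 3 the hepatectomy libraries lay above the sham libraries, and the 2 Cre-positive ones were the highest. Between genotypes in hepatectomy livers, however, 0 of the 15 reference genes passed the threshold (lowest limma adjusted p = 0.13). For the difference of response 0 passed as well (lowest limma adjusted p = 0.59).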

How the data were processed

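RNA of whole liver was sequenced in 8 libraries. The authors deposited normalized signal, per gene and per isoform. The submitters' processing notes name TopHat, Cufflinks and the builds mm9 and NCBIM37, while tool versions and the scaling are not given in the sources used here. Signal is no read count, whole reads could not be recovered and depth is unknown, so no counting interval is given. Library sums were 8617664 to 11583777. Exact zeros can be failed estimates.

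The 16443 genes with mean signal of 1 or more were tested on log2(signal + 1) with limma 3.58.1 in R 4.3.3, with 1 mean for each of 4 groups, a spread trend, 4 residual and 3.25 prior degrees of freedom, two-sided, with Benjamini-Hochberg adjustment over all genes. The script was tested on simulated data. Log2 ratios of 10 paralog pairs were compared by exact permutation. Isoform shares and promoter motifs were counted, without a test. Alternatives covered pseudocount, filter, scaling, trend, groups in the fit, each library left out and, chosen after seeing the data, a lowess correction for GC content (88.6% of tested genes and 39 members had a value).

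Members and lists were chosen with earlier results of these data known. Library values are printed for members past the threshold for hepatectomy, the extremes of each role, both genes of each pair and members past the threshold for genotype. They are also printed for Dtymk, Ctps, Atic, Adsl, Pfas, Dctd and Pdgfrb. From each further list they are printed for up to 3 genes past the threshold in each direction. A gene that the rule also named is not reported here. Groups came from the sample titles.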

Additional observations from a re-analysis of the deposited data

Results flagged for a closer look

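In 3 purine synthesis genes both Cre-negative hepatectomy libraries were below, and both Cre-positive ones above, the sham libraries of their own genotype. Atic, which carries the last steps to inosinate, had a log2 difference of response between genotypes of 1.20 (limma adjusted p = 0.591). Adsl, which acts in the step before it and again on the way to adenylate, had signal of 186, 237, 200.5 and 194 in sham livers and 123, 170.1, 207 and 332 after hepatectomy. Its difference of response was 0.95 (adjusted p = 0.649). Pfas, an earlier step, had signal of 99.3, 93.3, 95.9 and 78.4 in sham livers and 81.7, 66.6, 96.7 and 136 after hepatectomy, and its difference was 0.78 (adjusted p = 0.664). Such opposite sides were seen in 6.85% of all genes tested, against 7.69% of the members, so the members were near the share of all genes. In the first Cre-positive hepatectomy library the margin above sham was small for Adsl (207 against 200.5) and for Pfas (96.7 against 95.9).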

How the results depend on the processing

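For hepatectomy averaged over genotypes, the 6 member calls became 4 to 9 under the other settings that kept all libraries, and ranged from 0 to 20 when 1 library was left out. The 9 calls with GC correction were 8 that rose and Adssl1, which fell. In Cre-negative livers, the count of 0 became 1 with a mean of at least 10 or with only the groups compared, and 3 with GC correction (Dut, Nme1 and Tyms), and ranged from 0 to 8 without 1 library. In Cre-positive livers, the count of 2 became 1 with a pseudocount of 0.1 or 10, median-of-ratios scaling, quantile normalization or no trend, 0 without a filter or with only the groups compared, and 6 with GC correction, and ranged from 0 to 14 without 1 library. Genotype in hepatectomy livers ranged from 0 to 2 and averaged over operations from 0 to 1 without 1 library. Genotype in sham livers and the difference of responses stayed at 0 calls under every setting run. The paralog ratios also gave 0 calls, which says nothing about stability, since an exact permutation p of 0.0286, the smallest that 8 libraries allow, passes the adjustment over 10 pairs only if several pairs reach it together. At unadjusted exact p, without 1 library, Impdh2 over Impdh1, Ctps over Ctps2 and Prps1 over Prps2 each reached 0.0286 in 1 setting, while Nme1 over Nme2 rose to 0.0571 in 3 and Uck2 over Uck1 in 1. The cause of these moves was not tested. No fold change of a called gene reversed; of 194 single-gene comparisons 76 lost their call. Scaling moved the averaged all-gene median from 0.12 to -0.03. Leaving out a library leaves its group with 1, assumed to vary like the others. Dctd was not tested with a mean of at least 10 or without the second Cre-positive hepatectomy library. No paired analysis was possible because the titles number the libraries 1 to 8 and groups share no replicate number. Precision is limited by 2 libraries a group and unknown depth.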
